A study of Mus musculus with 4 samples.

Results

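The small leucine-rich proteoglycans are secreted matrix proteins, and the 9 examined here are decorin (Dcn), biglycan (Bgn), asporin (Aspn), fibromodulin (Fmod), lumican (Lum), prolargin (Prelp), osteomodulin (Omd), keratocan (Kera) and osteoglycin (Ogn). They were chosen by gene symbol, and every probe set that the array's annotation gives to them was taken, 20 of the 45101 probe sets on the array. After 1 probe set was chosen to stand for each gene these were 9 of 18193 genes, of which 8 gave a signal above the detection floor on at least 1 array, against 12503 genes in all. Keratocan was the exception, so it entered no difference between arrays.

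Total RNA came from MC3T3-E1, an immortal preosteoblast line derived from the calvaria of newborn C57BL/6 mice, and each of the 4 groups is 1 culture on 1 Affymetrix array. The osteogenic groups grew for 3 or 6 days in MEM α with 10% fetal bovine serum, beta-glycerophosphate at 10 mM as a phosphate donor and ascorbic acid 2-phosphate at 150 µM as a stable form of vitamin C. The normal medium groups grew for the same 3 or 6 days in MEM α with the same serum and neither supplement. Both supplements were always given together, so their separate parts cannot be told apart, and no group has a replicate, so a difference between 2 arrays carries no error from biological spread and no test. Signals are given after each array was scaled to a common 75th percentile, and a signal under 57.8, the pooled 50th percentile of all probe sets, was taken as not above the floor. A gene was called when its log2 difference was at least 1 in size, which is 2-fold; smaller differences are given as values.

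The family is built on a core of leucine-rich repeats folded into a curved solenoid that binds collagen fibrils and helps to set their diameter and spacing. Decorin and biglycan carry chondroitin or dermatan sulfate chains, fibromodulin, lumican, osteomodulin and keratocan can carry keratan sulfate, and asporin and prolargin lack typical chains of either kind. In bone, biglycan and decorin are abundant in the matrix laid down by osteoblasts, several members bind transforming growth factor beta, and osteomodulin and osteoglycin were first described from mineralised bone.

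Most measured members were lower in osteogenic medium, with 6 of 8 log2 differences below 0 at each day, though not all by much. At day 6, osteoglycin, asporin and decorin were lower in osteogenic medium, by 3.54-fold, 3.11-fold and 2.57-fold. At day 3 lumican was 2.12-fold higher in osteogenic medium, and osteoglycin, with a log2 difference of -0.99, was just short of the 2-fold line on the lower side and past it without further scaling (-1.01) or with its probe sets averaged (-1.10). Prolargin was 1.45-fold lower at day 3 and 1.40-fold lower at day 6 in osteogenic medium, while the brightest fibromodulin probe set differed by no more than 1.11-fold at either day. At day 3, 1 of the 8 measured members was 2-fold higher, against 1.99% of all measured genes, and 0 were 2-fold lower, against 1.59%. At day 6, 3 of 8 were 2-fold lower, against 2.78% of all measured genes, and 0 were 2-fold higher, against 4.18%. The median log2 difference over the 8 members was -0.46 at day 3 and -0.43 at day 6, where the median of all measured genes was 0.0092 and 0.013.

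**Figure D1:**
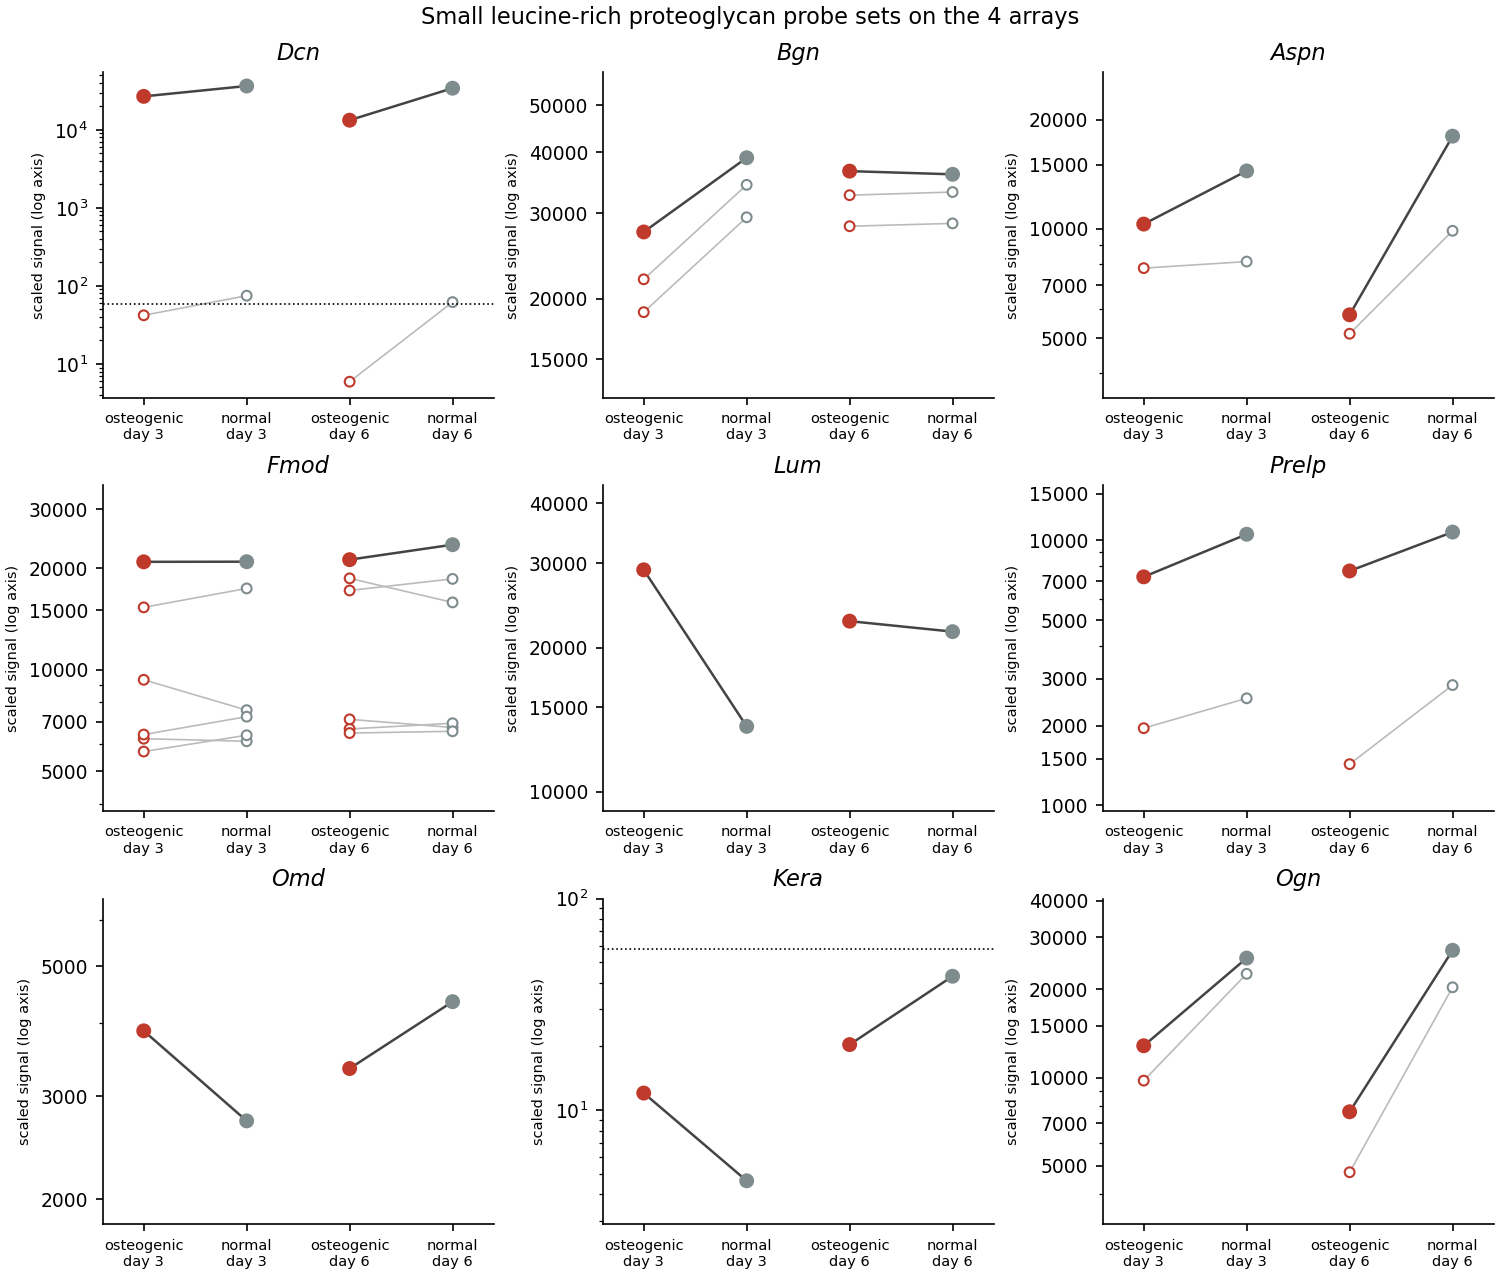
Scaled signal on a log axis for every probe set of the 9 members on the 4 arrays, with osteogenic medium in red and normal medium in grey at each day. Filled points are the probe set that stands for the gene, open points its other probe sets, lines join the media within a day, and the dotted line in the Dcn and Kera panels is the floor of 57.8; each point is 1 array. Osteoglycin, asporin and decorin sit lowest in osteogenic medium at day 6, lumican sits lowest in normal medium at day 3, and keratocan stays under the floor on all 4 arrays.

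Asporin, osteomodulin and osteoglycin lie side by side in this order on mouse chromosome 13, after their relative Ecm2, by RefSeq annotation of GRCm38.p6. Their upstream windows are shown because these neighbours, 1 from each class of the family, were not all called at day 6. Asporin (log2 difference -1.64) and osteoglycin (-1.83) were similar and past 2-fold lower in osteogenic medium, and osteomodulin (-0.38) was not past it. Each window is 300 bases on the plus strand, 250 before and 50 after the annotated start, with sequence from RefSeq. Windows were matched by symbol for 7 of the 9 members, and the sequences used here held no window for Dcn and Lum. The asporin window is chr13:49544193-49544492, the osteomodulin window chr13:49582212-49582511 and the osteoglycin window chr13:49607765-49608064, all of build GRCm38.p6. Capitals mark matches on either strand to TATAAA (the TATA box), TGTGGT (the core bound by RUNX factors, which include the master regulator of osteoblasts), TGANTCA (AP-1) and GGAATG (TEAD).
Aspn: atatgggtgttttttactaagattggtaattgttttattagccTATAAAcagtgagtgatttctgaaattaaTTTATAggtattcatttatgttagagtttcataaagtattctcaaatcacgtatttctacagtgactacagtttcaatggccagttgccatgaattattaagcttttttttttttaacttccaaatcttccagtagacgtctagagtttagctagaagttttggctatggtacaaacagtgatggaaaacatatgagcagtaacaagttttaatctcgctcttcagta
Omd: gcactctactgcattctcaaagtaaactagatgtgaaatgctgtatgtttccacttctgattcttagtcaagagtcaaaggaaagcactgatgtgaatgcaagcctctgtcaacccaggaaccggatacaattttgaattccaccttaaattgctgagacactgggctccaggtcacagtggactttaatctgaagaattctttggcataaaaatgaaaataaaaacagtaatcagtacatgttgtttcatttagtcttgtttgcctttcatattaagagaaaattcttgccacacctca
Ogn: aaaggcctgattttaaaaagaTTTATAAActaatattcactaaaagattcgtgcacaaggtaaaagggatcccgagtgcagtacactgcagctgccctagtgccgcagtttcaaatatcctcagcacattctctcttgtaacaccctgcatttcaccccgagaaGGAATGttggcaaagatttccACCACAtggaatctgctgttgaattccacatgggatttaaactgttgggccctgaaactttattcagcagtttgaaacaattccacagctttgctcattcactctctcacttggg
TATAAA had 2 matches in the asporin window, at bases 44 and 73 from the window's left end, and 2 overlapping matches in the osteoglycin window, the first at base 22. The annotated start follows base 250, so these matches lie far upstream of it and not close to it. Osteoglycin also had 1 match to GGAATG at base 165 and 1 to TGTGGT, on the opposite strand, at base 186. The osteomodulin window held none of the 4 motifs, and TGANTCA was in none of these 3 windows. The windows of Bgn, Fmod, Prelp and Kera, which are not shown, also held none of the 4 motifs. Among 32851 windows of the same length, 13.6% held TATAAA, 16.8% TGTGGT, 7.81% TGANTCA and 14.7% GGAATG. A match describes the letters of the window and not a bound site.

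Decorin, which coats collagen fibrils and holds a single chondroitin or dermatan sulfate chain, had a signal of 26828 in osteogenic medium at day 3, against 36437 in normal medium. At day 6 it had 13284 in osteogenic medium, against 34160 in normal medium. The osteogenic day 6 array was thus the low one, and the other 3 lay much closer together. The log2 differences were -0.44 at day 3 and -1.36 at day 6. A further probe set of decorin was faint, with 42.03 and 5.93 in osteogenic medium and 74.99 and 62.04 in normal medium at days 3 and 6. Only its normal medium arrays were above the floor, so it gives the same direction but no size, and averaging both probe sets reduced the day 6 difference to -0.73.

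Biglycan, the closest relative of decorin and a matrix proteoglycan that promotes osteoblast differentiation in mice, had a signal of 27438 in osteogenic medium at day 3, against 39016 in normal medium. At day 6 the media were nearly level, with 36617 in osteogenic and 36066 in normal medium. The osteogenic day 3 array was the low one for all 3 biglycan probe sets. Their log2 differences at day 3 were -0.51, -0.65 and -0.65, and at day 6 they were 0.022, -0.019 and -0.022. Signals this bright approach the highest on the arrays, which ranged from 66214 to 80749 after scaling, and their linearity in this range was not tested.

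Asporin, which in cell culture binds transforming growth factor beta and competes with decorin for collagen, had a signal of 10304.5 in osteogenic medium at day 3, against 14439 in normal medium. At day 6 it had 5794 in osteogenic medium, against 18003 in normal medium, a log2 difference of -1.64. As with decorin, the osteogenic day 6 array was the lowest of the 4, and here the normal day 6 array was also the highest. The other asporin probe set had 7792 in osteogenic against 8123 in normal medium at day 3, and 5139 in osteogenic against 9875 in normal medium at day 6. It ranked the day 6 arrays alike with a smaller difference, -0.94, short of 2-fold, and at day 3 its difference was -0.060 where the brighter probe set had -0.49.

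Of the class that can carry keratan sulfate, lumican, which limits the thickness of collagen fibrils, had a signal of 29056 in osteogenic medium at day 3, against 13699 in normal medium. At day 6 it had 22709 in osteogenic and 21594 in normal medium. The normal day 3 array was the low one, and the osteogenic day 3 array the highest. The log2 difference was 1.08 at day 3 and 0.073 at day 6. Lumican has 1 probe set on the array, so no other set of probes bears on its value.

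Fibromodulin, which shares a collagen binding site with lumican, measured 20925 in osteogenic against 20946.5 in normal medium at day 3, and 21239 in osteogenic against 23532 in normal medium at day 6. Across its 6 probe sets the medium difference ranged from -0.19 to 0.30 at day 3 and from -0.15 to 0.24 at day 6, so none came near 2-fold and both signs occurred. The estimated error of a single probe set, from genes with more than 1, was 0.26 at day 3 and 0.24 at day 6 on the log2 scale. One of its probe sets had 9336 in osteogenic and 7584 in normal medium at day 3, and 18687 in osteogenic and 15853 in normal medium at day 6. That probe set was 2.00-fold higher at day 6 than at day 3 in osteogenic medium and 2.09-fold higher in normal medium, while the other 5 fibromodulin probe sets differed between days by a log2 value of 0.22 at most. Of the 6 fibromodulin probe sets, 5 are of the array's x type, whose probes can match more than 1 transcript. The probe set past 2-fold between days and the one that stands for the gene are among them. A biglycan probe set, with -0.65 at day 3 and -0.022 at day 6, is also of this type.

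Prolargin, a basic protein that tethers basement membranes to collagen, measured 7281 in osteogenic against 10544 in normal medium at day 3, and 7664 in osteogenic against 10746 in normal medium at day 6. It was lower in osteogenic medium by nearly the same amount at both days, -0.53 and -0.49. Its other probe set had 1954 in osteogenic against 2534 in normal medium at day 3, and 1430 in osteogenic against 2842 in normal medium at day 6. Both probe sets thus put osteogenic medium lower at both days, but the dimmer one had -0.37 at day 3 and -0.99 at day 6.

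Osteomodulin, an acidic keratan sulfate proteoglycan of bone, had a signal of 3880 in osteogenic medium at day 3, against 2723 in normal medium. At day 6 it had 3346 in osteogenic medium, against 4352 in normal medium. The order of the media was thus opposite at the 2 days, with log2 differences of 0.51 and -0.38. Keratocan, best known from the cornea, had signals of 12.04 and 20.4 in osteogenic medium and 4.63 and 42.9 in normal medium at days 3 and 6. All 4 lay under the floor, so these values have no order.

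Osteoglycin, also called mimecan, had a signal of 12826.5 in osteogenic medium at day 3, against 25500 in normal medium. At day 6 it had 7646 in osteogenic medium, against 27097 in normal medium. Both osteogenic arrays were below both normal medium arrays. The other osteoglycin probe set had 9759 in osteogenic against 22540 in normal medium at day 3, and 4760 in osteogenic against 20280 in normal medium at day 6. It showed the same separation with log2 differences of -1.21 at day 3 and -2.09 at day 6, where the brighter probe set had -0.99 and -1.83.

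**Figure D2:**
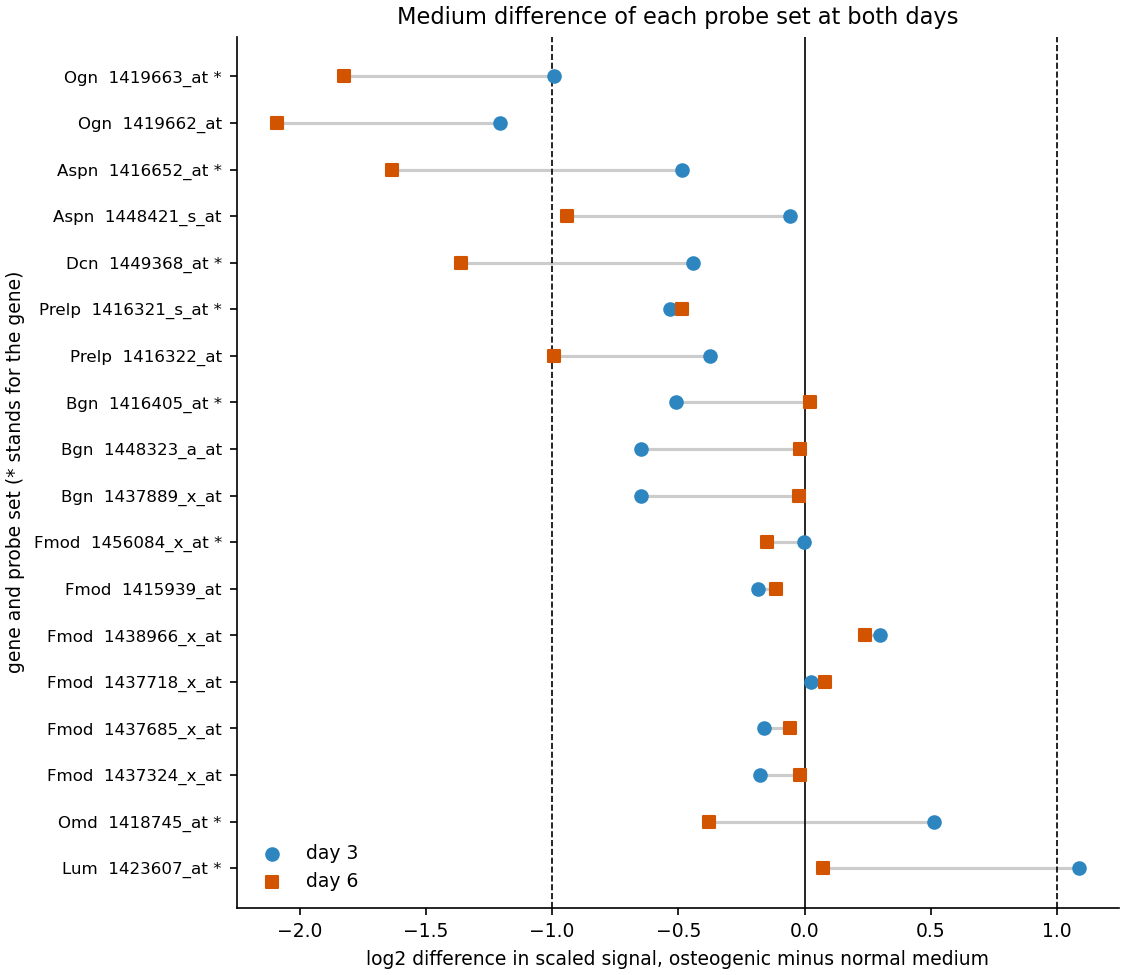
Log2 difference in scaled signal, osteogenic minus normal medium, on the horizontal axis for the 18 member probe sets above the floor on all 4 arrays, 1 row each, with day 3 as circles and day 6 as squares. An asterisk marks the probe set that stands for its gene, dashed lines mark 2-fold, and each point is the difference of 2 single arrays. Both osteoglycin probe sets lie farthest to the left at day 6, at -1.83 and -2.09, and lumican lies farthest to the right at day 3, at 1.08.

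The day 6 values rest on an osteogenic array on which the 5′ control probe set of small-subunit ribosomal RNA read 739, against 5137 in normal medium at day 6. At day 3 it was 8407 in osteogenic and 9193 in normal medium. The ratio of 3′ to 5′ signal for Gapdh, a common check of RNA integrity, was 0.763 on the osteogenic day 6 array and 0.756 to 0.769 on the others. The same ratio for Actb was 1.25 on the osteogenic day 6 array and 1.17 to 1.23 on the others, and for the ribosomal RNA it was 0.311 on that array and 0.033 to 0.051 on the others. The part of the ribosomal control in the day 6 differences was not tested. The day 3 differences do not use the osteogenic day 6 array. There osteoglycin had a log2 difference of -0.99, prolargin -0.53, biglycan -0.51, asporin -0.49 and decorin -0.44. Fibromodulin had -0.0015, osteomodulin 0.51 and lumican 1.08, and the other asporin probe set had -0.060.

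To set the 2 days together, an additive model of medium and day was fitted to all 12503 genes with limma, which treats the days as the only repeats of the medium difference. Each SE and interval below uses the variance that limma moderates over all genes, and is not the observed spread between the 2 days. Osteoglycin had a mean log2 difference of -1.41 ± 0.26 (moderated SE, n = 2 days). It was lower in osteogenic medium at both days, with an adjusted p of 0.223 from limma. Asporin had -1.06 ± 0.32 and decorin -0.90 ± 0.27, with adjusted p of 0.300 and 0.303 in the same limma fit, and prolargin had -0.51 ± 0.17 with 0.326. Lumican had 0.58 ± 0.29, with a 95% interval of -0.18 to 1.34 and a limma adjusted p of 0.462. The intervals of biglycan, fibromodulin and osteomodulin also included 0. By this limma test 0 of 8 members had an adjusted p under 0.05, as did 0 of all 12503 genes, 0.0%. An unadjusted p under 0.05 was reached by 4 of 8 members, osteoglycin, asporin, decorin and prolargin, and by 1737 genes in all, 13.9%. With each gene's own variance in place of limma's moderated one, 0 genes passed after adjustment and 848 before. The fit has 1 residual degree of freedom, and a medium difference that changes between days adds to its residual.

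**Figure D3:**
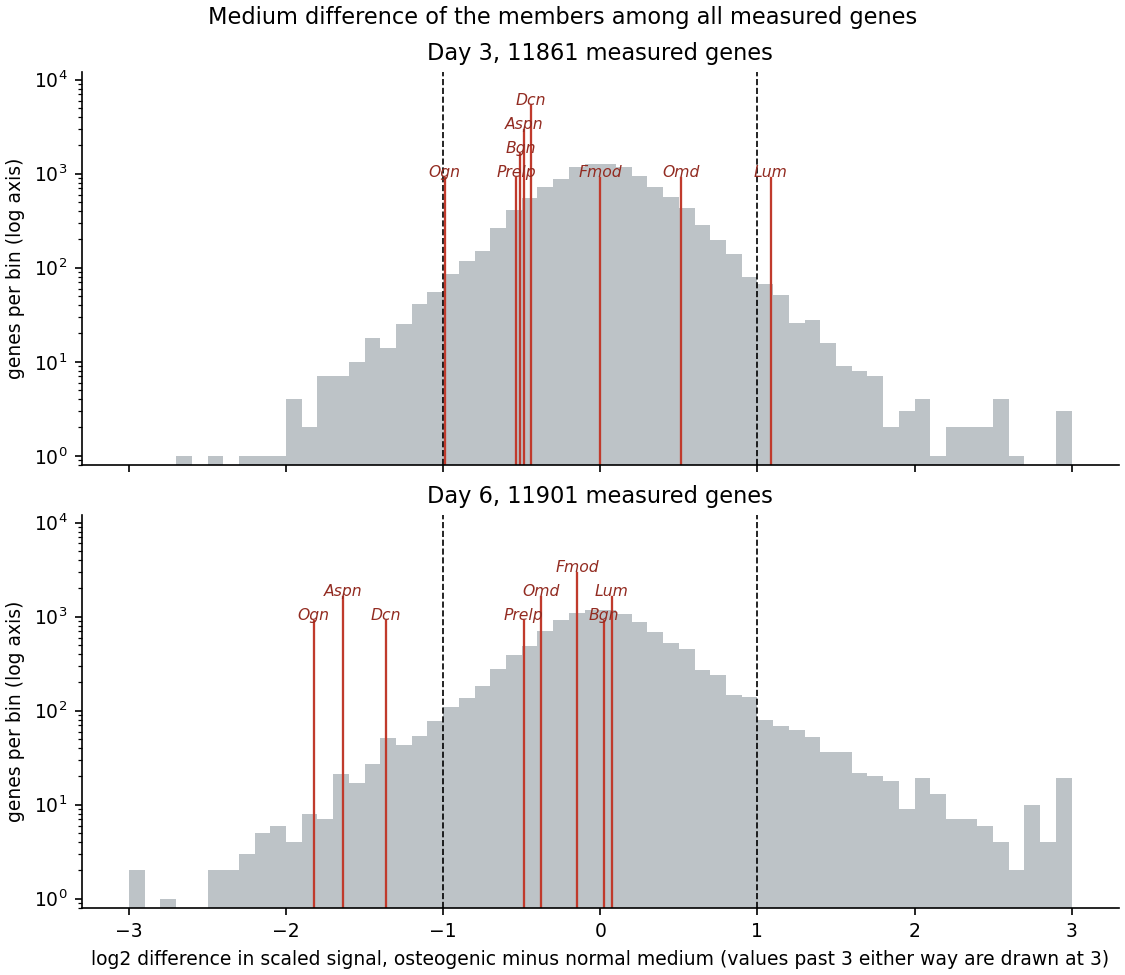
Histograms of the log2 difference in scaled signal, osteogenic minus normal medium, for all measured genes at day 3 (top) and day 6 (bottom), with the number of genes per bin on a log axis. Red lines mark the 8 measured members and dashed lines mark 2-fold. At day 6 osteoglycin, asporin and decorin lie left of the lower line, with 2.78% of all genes.

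The medium difference moved downward between day 3 and day 6 for most of the family. The change in log2 difference, day 6 minus day 3, was -1.15 for asporin, -1.01 for lumican, -0.92 for decorin, -0.89 for osteomodulin and -0.83 for osteoglycin, against 0.53 for biglycan. Asporin and lumican passed 2-fold, 2 of 8 members, against 3.0% of all genes for a downward change, though lumican had -0.99 without further scaling. Decorin's change was -0.32 with its probe sets averaged. For asporin, decorin and osteoglycin this is a widening of a difference already below 0, and for lumican the loss of a difference above 0. No test of the change is possible with 1 array per group.

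Within each medium the same values read as time courses, which share their arrays with the medium comparisons. In osteogenic medium decorin was 2.02-fold lower at day 6 than at day 3, 1 of 8 members, against 2.62% of all genes, but its log2 value of -1.01 was -0.97 without further scaling, -0.98 after quantile normalization and -0.51 with its probe sets averaged. Asporin (-0.83), osteoglycin (-0.75) and lumican (-0.36) had log2 differences below 0. The dimmer osteoglycin probe set had -1.04, past 2-fold. Biglycan had 0.42. In normal medium 0 of 8 members passed 2-fold either way, against 1.48% of all genes. There osteomodulin (0.68) and lumican (0.66) had the largest values among the members, and asporin had 0.32, while decorin (-0.093) and osteoglycin (0.088) stayed near 0.

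Members that lie close together in the genome had similar values in some cases and different values in others. On chromosome 10, where decorin, lumican, keratocan and their relative Epyc follow each other, decorin had log2 differences between media of -0.44 and -1.36 at days 3 and 6, lumican had 1.08 and 0.073, and keratocan was under the floor. On chromosome 13 asporin (-1.64) and osteoglycin (-1.83) were both lower in osteogenic medium at day 6, and osteomodulin, between them, was at -0.38. On chromosome 1, prolargin had -0.53 and -0.49 on the log2 scale, while its neighbour fibromodulin had -0.0015 and -0.15. Biglycan lies on the X chromosome away from the others.

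Of 9 other secreted leucine-rich proteins of the superfamily, 7 were found by symbol among the probe sets used. Of these, 2 were measured at day 3 and 4 at day 6. None passed 2-fold between media. Podn, which encodes podocan, a collagen-binding member of the superfamily, measured 268 in osteogenic against 455 in normal medium at day 3 and 256 in osteogenic against 436 in normal medium at day 6, log2 differences of -0.76 and -0.77. Ecm2, next to asporin, was under the floor in osteogenic medium at day 6 with 16.4, against 98.6 in normal medium, at least 1.70-fold lower. These 2 genes thus lay below normal medium at day 6, while Chadl had 119 in osteogenic against 71.2 in normal medium.

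The enzymes that build the sugar chains showed little shift as a group. Of the linker, chondroitin and dermatan sulfate enzymes, 18 were measured at day 3, with 0 past 2-fold and a median of -0.13, and 20 at day 6, with 0 higher, 1 lower and a median of -0.070. The exception was B3galt6, a galactosyltransferase of the linker, which was under the floor in osteogenic medium at day 6 and at least 3.15-fold lower than its 182 in normal medium. Of 4 measured keratan sulfate enzymes, 1 was lower at each day, Chst2, which adds sulfate to N-acetylglucosamine. Chst2 had 217 in osteogenic against 520 in normal medium at day 3, and 210 in osteogenic against 770 in normal medium at day 6, log2 differences of -1.26 and -1.87. Both its osteogenic arrays lay below both normal medium arrays, as for osteoglycin. The medians of that list were -0.22 and -0.33.

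The collagens that the proteoglycans bind, 10 fibrillar, fibril-associated and type VI chains, had 0 past 2-fold at either day. Their median log2 difference was -0.24 at day 3, with 9 of 10 below 0, and 0.0069 at day 6, with 4 of 10 below 0. Col1a1 and Col1a2, which encode the chains of type I collagen, had -0.21 and -0.26 at day 3 and 0.026 and 0.067 at day 6. Their signals, from 49649 for Col1a1 to 71450 for Col1a2, were brighter than those of biglycan. Linearity in this range was not tested. At day 6 the 10 collagens ranged from -0.51 for Col12a1, with 7604 in osteogenic against 10827 in normal medium, to at least 0.38 for Col14a1, which was under the floor in normal medium.

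Among growth factors and receptors that members are known to bind, 13 were measured, with medians of 0.0031 at day 3 and -0.034 at day 6. Tgfb1, the ligand that decorin, biglycan, asporin and fibromodulin bind, was the 1 past 2-fold, at day 6, where it measured 2355 in osteogenic medium and 718 in normal medium, a 3.28-fold higher value. At day 3 it had 1166 in osteogenic and 1052 in normal medium. Of proteases that process or cleave members, together with the enhancer Pcolce, 10 were measured at day 3, with 1 lower and a median of -0.30, and 9 at day 6, with 2 lower and a median of -0.38. Adamts5, an aggrecanase, was 2.36-fold lower at day 3, and Adamts1 and Htra1, which cleave matrix proteoglycans, were 3.17-fold and 2.74-fold lower at day 6. No protease of the list was 2-fold higher in osteogenic medium at either day.

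**Figure D4:**
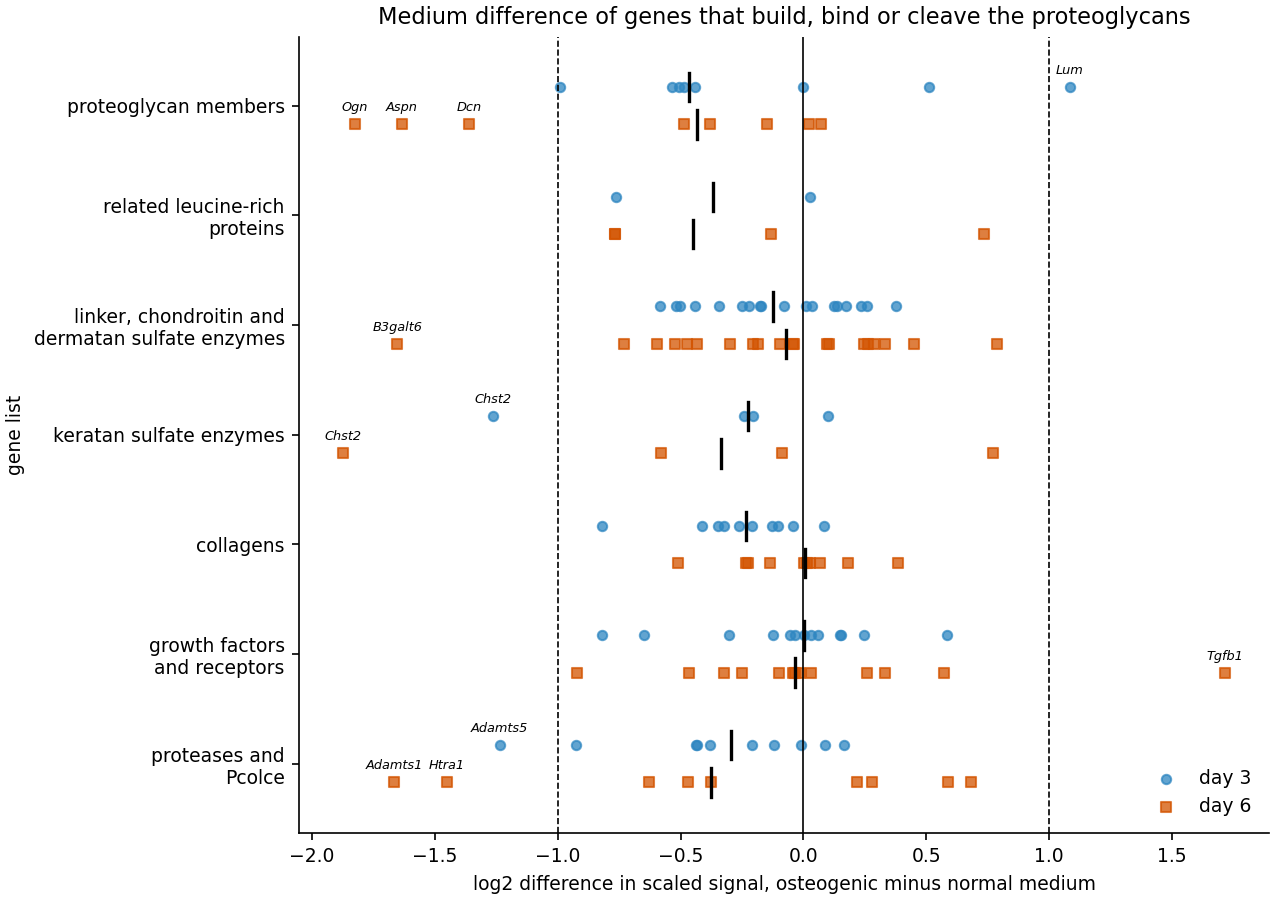
Log2 difference in scaled signal, osteogenic minus normal medium, for the measured members and 6 lists of genes that are related to them, build their chains, bind them or cleave them, with day 3 as circles and day 6 as squares. Black bars are medians, dashed lines mark 2-fold, named genes are past it, and each point is the difference of 2 single arrays. The collagen medians were -0.24 and 0.0069, and Chst2 was at -1.26 and -1.87.

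For the 4 measured members whose log2 signal spanned at least 1 across the arrays, the genes with the most similar profile were found by Euclidean distance between centred log2 values over the 4 arrays, among 9942 genes above the floor on all of them. Osteoglycin was closest to Tnfrsf21 (distance 0.069), a death receptor gene, then Ssc5d and Rab30. Asporin was closest to Fam122b (0.11), Kif5c and the protease gene Adamts1, and decorin to Mex3b (0.073), Nsg1 and Pappa2. Lumican was closest to Rad51b (0.024), Trpc7 and Lztr1. With 4 points per profile and so many candidates, close matches are easy to find, and the distances are given as a description only.

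The label of the cells was checked against marker genes. The 5 osteoblast markers analysed here, Sp7, Alpl, Col1a1, Ibsp and Sparc, were above the floor on all 4 arrays. Ibsp was 11.6-fold and 43.4-fold higher in osteogenic medium at days 3 and 6, and Alpl 2.94-fold and 3.25-fold higher. Sp7, Col1a1 and Sparc did not reach 2-fold either way at either day. All 4 adipocyte markers analysed were under the floor on every array. Of 5 leukocyte markers, Ptprc and Cd68 were under the floor on every array, while Lyz2, Cd14 and Csf1r were above it on all 4, and Lyz2 had 223 in osteogenic against 526 in normal medium at day 6, a log2 difference of -1.24. The leukocyte markers summed to 680 and 714.5 in osteogenic medium and 794 and 981 in normal medium at days 3 and 6. Of 5 muscle markers, Myod1 and Myog were under the floor on every array, Acta1 was above it on 4 arrays and Des and Ckm on 3. Des had 164 in osteogenic medium at day 6 and was under the floor in normal medium, at least 2.84-fold higher. The muscle markers summed to 397 and 447 in osteogenic medium and 399 and 365 in normal medium at days 3 and 6. Of 5 endothelial markers, Kdr was above the floor on 1 array and Pecam1, Cdh5, Tek and Emcn on none. Of 7 chondrocyte markers, 4 were above the floor on at least 1 array, and Acan, Matn1 and Comp on none. Col2a1 was 2.18-fold and 4.84-fold higher in osteogenic medium at days 3 and 6, and Cnmd 2.56-fold and 2.51-fold higher. No measured chondrocyte marker was 2-fold lower at either day. The chondrocyte markers summed to 6003 in osteogenic against 3655 in normal medium at day 3, and 8240 in osteogenic against 3433 in normal medium at day 6. Of 4 tenocyte markers, Scx, Tnmd and Mkx were above the floor on all arrays and Thbs4 on none, and summed to 932 in osteogenic against 626 in normal medium at day 3, and 610 in osteogenic against 606 in normal medium at day 6. The part of these genes in the differences of the members was not tested, and in RNA from a whole culture fewer cells of a kind and less RNA per cell cannot be told apart.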

How the data were processed

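Biotin-labelled cRNA from total RNA of 4 cultures was hybridised to Affymetrix mouse genome arrays, per the labels' protocols. The authors deposited 1 linear intensity per probe set and array, whose mean without the lowest and highest 2% was 500 on every array, so they had been scaled before deposit. The summary software is not given in the sources used here. Such scaling hides differences between cultures in their whole RNA content, and precision is limited by having 4 arrays.

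Of 45101 probe sets, 64 were controls, 34945 had 1 gene symbol in GEO's annotation, 932 several and 9160 none in the table used here; only those with 1 symbol were used. Each array was multiplied by a factor (0.988 to 1.02) to reach a common 75th percentile, values under the pooled 50th percentile (57.8) were set to it, and log2 was taken. The probe set with the highest mean stands for a gene, and a gene entered a comparison when either array exceeded the floor. The error of a single probe set is the scaled median absolute difference between the 2 brightest probe sets of a gene. Single-day differences have no test, and the additive fit used limma 3.58.1 in R 4.3.3 with Benjamini-Hochberg adjustment over all genes. The steps were tested on simulated data.

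Named genes were the members, up to 4 genes per list past 2-fold between media, Col1a1 and Col1a2, and the 3 closest profiles per member. Other genes of a list are named where they are neighbours of members or make up its small count, chosen after their values were seen. The members and lists were chosen with earlier results of these data known. The 8 alternatives to scaling, floor and probe set choice, and 1 to the variance, are in the closing section. Gene order, coordinates and upstream sequences are from RefSeq for GRCm38.p6, and the arrays' own build is not given in the sources used here.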

Additional observations from a re-analysis of the deposited data

Results flagged for a closer look

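Osteomodulin and biglycan differed in the direction of the medium difference between days. Osteomodulin had a log2 difference, osteogenic minus normal medium, of 0.51 at day 3 and -0.38 at day 6. Both were larger than the estimated error of a single probe set, which comes from probe sets on the same arrays and holds no spread between cultures. Biglycan had -0.51 at day 3 and 0.022 at day 6, and the day 6 value is smaller than that error. With 1 array per group the difference between days was not tested. No group has enough samples to look for a sample far from the others.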

How the results depend on the processing

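Of 392 values for single members under the alternatives, 0 values called at 2-fold changed sign. Differences between media, between days and their change were compared with the probe set error, and 6 moved by more than it. All 6 did so under averaging of probe sets, for decorin, asporin and prolargin. Values of the additive fit, also among the 392, were compared by adjusted p only. Averaging took the fitted difference from -0.90 to -0.57 for decorin and from -1.06 to -0.78 for asporin. Averaging gave day 6 differences of -0.73 for decorin, -1.29 for asporin and -0.74 for prolargin, and a change between days of -0.32 for decorin. The other probe sets of asporin and prolargin had day 6 differences of -0.94 and -0.99. Decorin's other probe set was under the floor in osteogenic medium. Setting it to the floor gave -0.10 at day 6, which is no measure of size. The count of members past 2-fold at day 3 was 2 without further scaling, with neither floor nor filter and with averaged probe sets, against 1. The added member was osteoglycin, or keratocan, from signals under the floor, with neither floor nor filter. For the change between days it was 1 without further scaling, against 2. That count was 3 after quantile normalization, where decorin had -1.05, and 3 with neither floor nor filter, again with keratocan. In osteogenic medium over time it was 0 without further scaling, after quantile normalization and with averaged probe sets, against 1, and in normal medium it was 1, again keratocan, with neither floor nor filter, against 0. At day 6 the count was 2 with averaged probe sets, where decorin fell short of 2-fold, against 3. With neither floor nor filter it was 4, again with keratocan added, and it stayed at 3 under the other alternatives.

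Counts over all genes followed the floor. At day 3, 424 genes past 2-fold became 752 and 227 with floors at the 40th and 60th percentiles, 4478 with neither floor nor filter and 257 with averaged probe sets. The 828 at day 6 became 4782 with neither floor nor filter. Over time the 174 in normal medium became 436, 59, 4096 and 97 under the same 4 settings, and the 755 in osteogenic medium became 4723 with neither floor nor filter. For the change between days, 928 became 1508, 575, 5951 and 585. In the limma fit 0 members passed adjustment under any alternative, with adjusted p from 0.205 to 0.969. No fit paired by replicate number could be made, since each group has 1 array and the labels number no replicates; the limma fit compares the media within each day. No comparison at day 6 can be made without the osteogenic day 6 array.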
